A study of Drosophila melanogaster with 2 samples.

Results

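The genes described here encode 10 Polycomb group proteins of Drosophila melanogaster: ph-p, ph-d, Psc, Su(z)2 and Pc of Polycomb repressive complex 1 (PRC1), Sfmbt, pho and phol of the Pho repressive complex (PhoRC), and E(z) and esc of Polycomb repressive complex 2 (PRC2). They were chosen by name, as 10 of 13945 protein-coding genes, with earlier results of these data known. Each was examined over its gene body plus 5 kb on either side. Chromatin came from embryos of mixed sex, 0 to 24 h after laying, of a transgenic line that stably expressed CG12236, a BTB zinc finger protein, with green fluorescent protein at its C terminus, and it was immunoprecipitated with an antibody against the tag. The 2 samples were biological replicates of 1 group, numbered 3 and 1, with no untagged or mock-precipitated list analysed here, so no condition could be compared and no test was run. The tagged protein was a transgene product in whole embryos, so cell types and stages were mixed, and the untagged protein was not measured.

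Polycomb group proteins keep developmental genes silent, the Hox genes best known among them. PRC2 places methyl groups on the tail of histone H3 through its catalytic subunit E(z), which needs the WD repeat protein esc. PRC1 contains Pc, whose chromodomain binds that mark, the Polyhomeotic proteins encoded by ph-p and ph-d, which assemble through their SAM domains, and Psc or its relative Su(z)2, RING finger proteins that compact chromatin. The related zinc finger proteins pho and phol bind DNA at Polycomb response elements and recruit the other complexes, with Sfmbt as the partner protein in PhoRC. Several of these genes are known to carry Polycomb response elements of their own, ph and Psc with Su(z)2 among them.

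Regions came from 4 lists of the authors: 30000 regions for each replicate, 30000 for both replicates pooled, and an optimal list of 2426 peaks selected by irreproducible discovery rate (IDR), which were the 2426 strongest pooled regions. Signal below means the authors' own value per region, of a scale that the sources used here do not give, and it was compared only within a list. Its median was 25.4 in the pooled list, 16.7 in replicate 3 and 12.6 in replicate 1. The read depth behind each list is unknown, and a list cut at 30000 regions reaches into background. Positions are on dm6 and are given relative to a transcript start, with negative values upstream. A promoter was 500 bp either side of the start of a protein-coding transcript.

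Of the 10 genes, 6 had an IDR summit in the gene body or within 5 kb (ph-p, ph-d, Psc, Pc, Sfmbt and phol), where 30.6% of all protein-coding genes did. At a promoter, 3 of the 10 had one (ph-p, Psc and Sfmbt), where 10.2% of all genes did. In the longer pooled list all 10 had a summit at a promoter, where 51.8% of all genes did. The windows of the 10 genes were also longer than usual, with a median of 18360 bp against 12166 bp for all protein-coding genes. Counted per length, their merged windows of 176471 bp held 11 IDR summits, or 6.23 per 100 kb, where the merged windows of all protein-coding genes held 2.05 per 100 kb. The same windows held 75 pooled summits, or 4.25 per 10 kb against 2.50. Neighbouring genes share windows, so these are descriptions of places and not of 10 independent units. The genes were also chosen with earlier results of these data known, so the shares over all genes are not a neutral background.

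**Figure D1:**
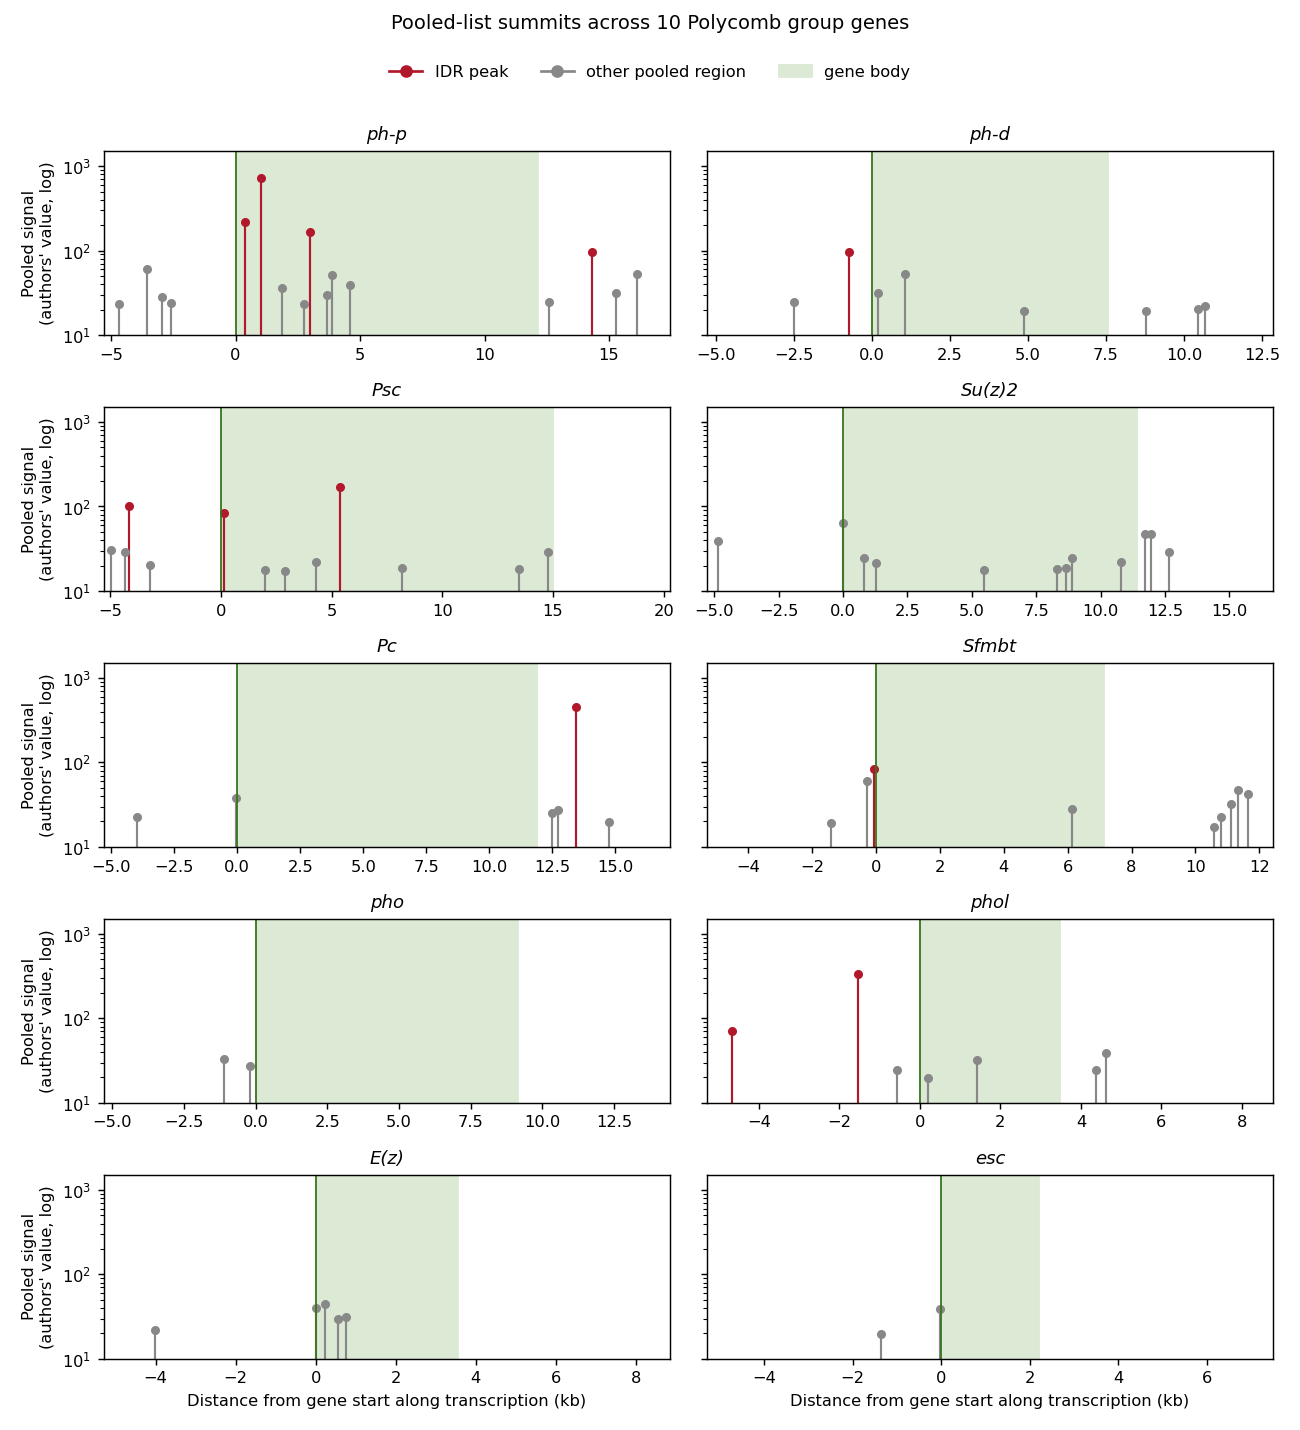
Each panel shows a gene's pooled-list summits by distance from its gene start (kb, along transcription) against the authors' pooled signal (log axis), with IDR peaks in red, other pooled regions in grey and the gene body shaded green. The 3 tallest summits lie inside ph-p (730), beyond the end of Pc (448) and upstream of phol (332), and pho, E(z), esc and Su(z)2 have no red summit.

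The strongest of the 11 peaks lay inside ph-p (X 2126210 to 2138371, reverse strand). Its interval was X 2137176 to 2137559 with the summit at 2137346, in an intron of the longer transcripts and at -491 bp from the start of a shorter one. Its signal was 730 in the pooled list (rank 10), 470 in replicate 3 (rank 12) and 270 in replicate 1 (rank 8). It was the strongest region of the 10 windows in each list, and 99.9% of genes with a promoter region had a weaker strongest region in each of the 3 lists. A further IDR peak covered an exon of ph-p at 392 bp from the outermost start, with a signal of 216 pooled, 157 in replicate 3 and 73.6 in replicate 1. The third was in an intron, 1249 bp from the nearest ph-p start, with 166 pooled, 96.9 in replicate 3 and 68.2 in replicate 1. In all 3 lists these peaks kept the same order of signal.

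Its tandem neighbour ph-d (X 2115727 to 2123286, reverse strand) had no IDR peak at a promoter. Its strongest promoter region lay at -445 bp from a ph-d start, with a signal of 52.1 in the pooled list (rank 4033). In replicate 1 that site gave 31.6 (rank 2106). In replicate 3 it gave 17.7, and the strongest promoter region there was another, with a signal of 24.9 (rank 6696). The ph-d promoter was thus in the upper part of the genes in replicate 1, where 81.9% had a weaker region, and near the middle in replicate 3, where 53.2% did. The log2 ratio of ph-p over ph-d at promoters was 3.81 in the pooled list, 4.24 in replicate 3 and 3.10 in replicate 1. At this promoter size ph-p thus stood higher in every list. The ph-p value rests on the summit at -491 bp, just inside the limit of 500 bp. Within 200 bp of a start, ph-p had a pooled signal of 35.8 at 122 bp (rank 7951). The nearest ph-d summit, at 204 bp with 31.4, fell outside that limit, so no ratio was formed there. Between the genes, at -750 bp from the ph-d start, an IDR peak fell in the windows of both (X 2123824 to 2124247). It had a signal of 96.0 pooled (rank 1397), 51.9 in replicate 3 and 48.7 in replicate 1. Taking promoters as 1000 bp counted this peak for ph-d and brought the log2 ratio to 2.93.

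Because ph-p and ph-d arose by duplication, their sequences were aligned to see whether the peaks lay in shared parts. The longest aligned block, inside the gene bodies, spanned 4480 bp at 92.0% identity. It held no pooled summit in ph-p and 1 in ph-d, with a signal of 19.4 and rank 24191. In the ph-p gene body 67.8% of all 36 bp words occurred once in the genome, and in the ph-d gene body 67.5% did, so a mapping that drops repeated reads could not see all of it. The part of this in the empty block was not tested. Upstream, the block before the strongest ph-p summit had 90.7% identity, the next had 70.5% and the last 81.0%. That summit itself fell in 208 bp between the first and second of these blocks (X 2137265 to 2137472) that had no aligned counterpart, since ph-d had 15 bp there. All 173 words of 36 bp in the stretch occurred once in the genome, and a search of the genome with it found 1 match, itself. The summit between the genes lay in the block of 70.5% identity and aligned to X 2137839, 140 bp from the exon summit of ph-p. In the other direction the exon summit aligned to X 2124284, 248 bp from the summit between the genes. An alignment with other scoring (dc-megablast), tried after the data were seen, did not return the block of 70.5% identity. It left 689 bp of ph-p unaligned against 565 bp of ph-d, so the strongest ph-p summit and the summit between the genes were then both outside any block.

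The sequences at the strongest ph-p summit and at the matching place in ph-d are given by the first alignment. Each begins and ends 40 bp outside the unaligned stretch, on the forward strand of dm6, 5′ to 3′, with capitals for the bases outside aligned blocks. The ph-p run is chrX:2137225-2137512 and the ph-d run is chrX:2123657-2123751.
ph-p: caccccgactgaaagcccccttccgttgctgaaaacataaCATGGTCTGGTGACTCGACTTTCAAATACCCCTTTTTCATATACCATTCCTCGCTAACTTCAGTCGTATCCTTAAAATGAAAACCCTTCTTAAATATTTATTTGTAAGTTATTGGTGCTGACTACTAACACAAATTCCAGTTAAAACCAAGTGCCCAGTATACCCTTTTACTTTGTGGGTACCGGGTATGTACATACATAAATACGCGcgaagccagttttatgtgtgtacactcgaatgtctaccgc
ph-d: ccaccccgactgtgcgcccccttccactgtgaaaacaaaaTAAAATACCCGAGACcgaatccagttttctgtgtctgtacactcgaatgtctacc
The lower-case ends lie in aligned blocks, and the capitals are most of the ph-p run and a short piece of the ph-d run. Of 7 motifs searched on both strands, listed further on, none lay within 100 bp of the ph-p summit. For comparison, the peak between the genes is given over 75 bp either side of its summit, at chrX:2123961-2124111.
ph-d upstream: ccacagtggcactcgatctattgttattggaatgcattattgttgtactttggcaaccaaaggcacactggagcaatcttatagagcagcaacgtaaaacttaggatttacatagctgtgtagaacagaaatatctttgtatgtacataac
None of the 7 motifs lay in this run either.

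**Figure D2:**
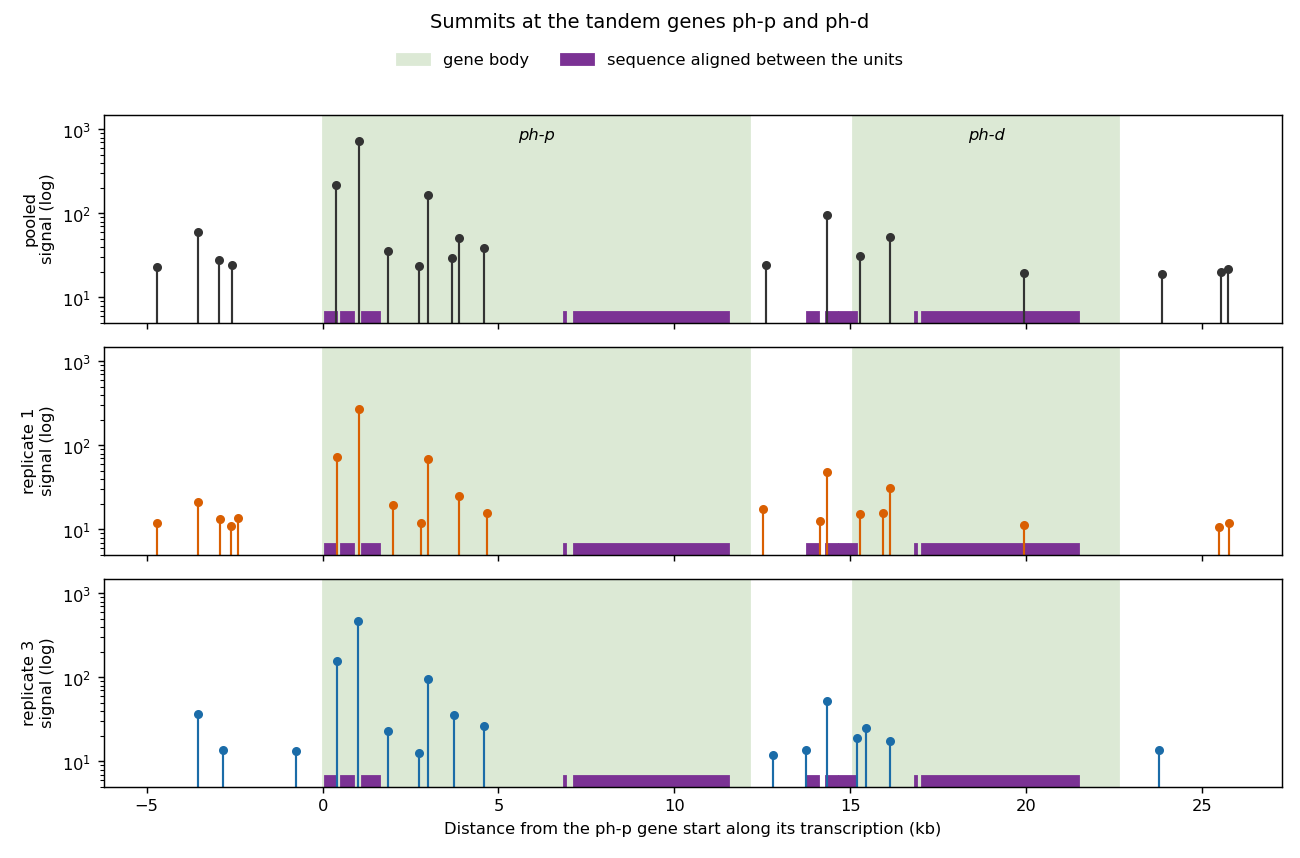
Summits at ph-p and ph-d in the pooled list, replicate 1 and replicate 3, by distance from the ph-p gene start along its transcription (kb) and signal (log axis), with gene bodies in green and sequence aligned between the genes in purple along the base. The tallest summit, with a signal of 730, 270 and 470 from top to bottom, stands between purple blocks, and the long blocks in the gene bodies hold almost no summits.

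Psc (2R 12965997 to 12980994, reverse strand) had 3 IDR peaks, each at a different kind of place. The strongest was in an intron, 5054 bp from the nearest start (2R 12975517 to 12975692), with a signal of 172 pooled, 105 in replicate 3 and 70.6 in replicate 1. The next was intergenic, at -4144 bp (2R 12985094 to 12985263), with 102 pooled, 67.4 in replicate 3 and 45.8 in replicate 1. The replicate 1 region covered this interval, but its summit (2R 12985271) lay 133 bp from the pooled one, just past the interval's end. Another pooled region, with a signal of 28.8, had its summit nearby at 2R 12985349, so the value of 45.8 may not belong to this peak alone. The weakest was at the promoter, 156 bp into an exon (2R 12980626 to 12981049), with 83.4 pooled, 51.5 in replicate 3 and 33.4 in replicate 1. The same order of intron, intergenic and promoter held in each list. The intronic and intergenic peaks were also the narrowest of the 11, at 176 and 170 bp, where 1939 of the 2426 IDR peaks had the most common width of 424 bp. In the replicate lists neither was narrow, with both sites at 424 bp in replicate 3 and 404 bp in replicate 1. All 36 bp words of the Psc window occurred once in the genome.

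Su(z)2 (2R 12996501 to 13007911, forward strand), which is read away from Psc with CG33798 between them, had no IDR peak. Its strongest region was near the start in each list, with the summit at 8 bp pooled, 122 bp in replicate 3 and -72 bp in replicate 1. The signal was 64.1 pooled (rank 2837), 41.1 in replicate 3 (rank 2788) and 32.6 in replicate 1 (rank 1954). The −log10 q value of the pooled region was 3.82, the maximum shared by all IDR peaks. Its signal was just under the lowest of the IDR list, 70.5. The weakest of the 11 peaks, in the phol window, had 71.3 and was just inside. At promoters alone Psc and Su(z)2 were close in replicate 1, with 33.4 against 32.6. Psc was higher at promoters in replicate 3, with 51.5 against 41.1, and in the pooled list, with 83.4 against 64.1. Over the whole windows Psc stood higher, by a log2 ratio of 1.43 pooled, 1.35 in replicate 3 and 1.11 in replicate 1, all from its intronic peak. Both windows held 12 pooled summits, 8 of them in each gene body. Beyond the end of Su(z)2 a pair of intergenic regions at 11731 and 11946 bp from the gene start had pooled signals of 46.6 and 47.0.

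**Figure D3:**
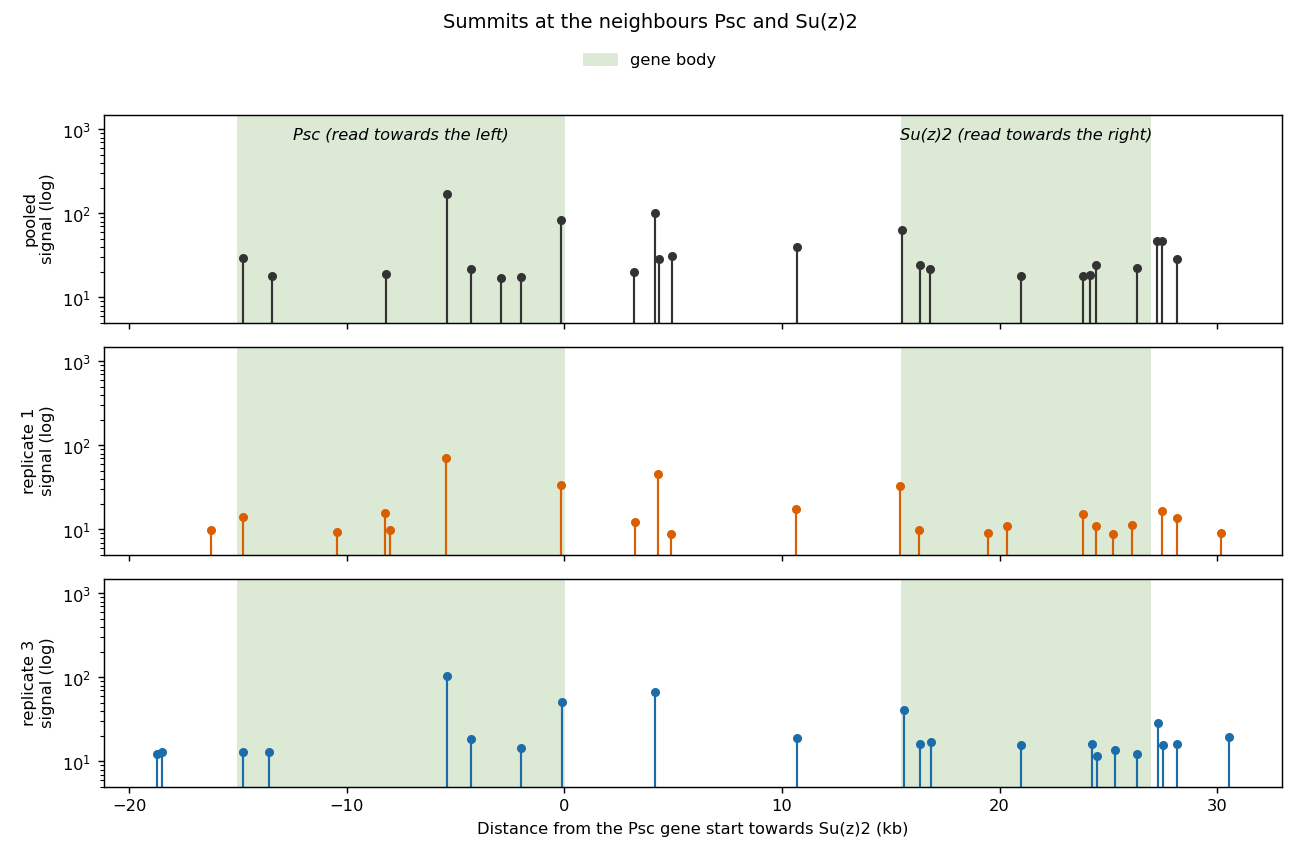
Summits at Psc and Su(z)2 in the pooled list, replicate 1 and replicate 3, by distance from the Psc gene start towards Su(z)2 (kb) and signal (log axis), with gene bodies in green. The Psc intron summit is the tallest in each panel (172, 70.6 and 105 from top to bottom), and the Su(z)2 start has the tallest summit of that gene (64.1, 32.6 and 41.1).

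Pc (3L 21306138 to 21318020, reverse strand) was counted among the genes with an IDR peak through a region at neighbouring genes. The peak (3L 21304413 to 21304733) ranked 41 in the pooled list with a signal of 448, 57 in replicate 3 with 255 and 21 in replicate 1 with 192. It lay 13457 bp from the Pc start, beyond the end of the gene, and 95 bp from the start of CG11309, with a CG7632 start also within 500 bp. At the Pc promoter itself, at -54 bp, the signal was 38.3 pooled (rank 7056) and 15.0 in replicate 3 (rank 18597), while replicate 1 had 24.7 at 25 bp (rank 3506). That placed Pc above 50.3% of genes with a promoter region in the pooled list, above 19.6% in replicate 3 and above 71.1% in replicate 1, so the replicates put it on either side of the median. The Pc gene body held no pooled summit at all. A roo element of 9101 bp fills 76.6% of that gene body in the reference annotation, and 23.7% of its 36 bp words occurred once in the genome. The part of this in the lack of summits was not tested.

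In PhoRC, Sfmbt (2L 13169649 to 13176785, reverse strand) had an IDR peak at -56 bp (2L 13176629 to 13177052). Its signal was 83.6 pooled (rank 1815), 55.3 in replicate 3 (rank 1667) and 26.3 in replicate 1 (rank 3049). It was the one peak of the 11 that was not among the 2426 strongest regions of both replicates, being weaker in replicate 1. Starts of CG43925 and CG5439 also lay within 500 bp, so the peak counts for those genes too, although the Sfmbt start was the nearest. Downstream, 5 weaker regions covered the promoters of DnaJ-H and Sirt1, with pooled signals from 17.3 to 47.7.

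The paralogues pho and phol, which encode related DNA-binding proteins, had the weakest promoter regions of the 10 in the pooled list. The pho promoter (chromosome 4) had a signal of 27.3 pooled, 15.0 in replicate 3 and 11.7 in replicate 1, above 29.9%, 19.7% and 21.1% of genes. In the phol promoter (3L) the signal was 19.6 pooled, 24.1 in replicate 3 and 20.9 in replicate 1, above 8.40%, 51.6% and 61.4% of genes. The phol summits in the replicates lay at -195 and 262 bp, and the pooled summit at 207 bp, so the lists did not mark a single site. A CG3552 start also lay within 500 bp of each of these summits, so they count for that gene too. The replicate 3 summit was nearer to the CG3552 start, at 158 bp. Transposable elements filled 48.8% of the pho gene body in the annotation, and 91.4% of its 36 bp words occurred once in the genome. Its 2 pooled summits both lay upstream of the gene.

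The IDR peaks in the phol window lay at promoters of its upstream neighbours. One (3L 9457667 to 9457952) lay -1540 bp from the phol start and -91 bp from the start of CG3552, with a CG3437 start within 500 bp. It had a signal of 332 pooled (rank 86), 212 in replicate 3 (rank 83) and 121 in replicate 1 (rank 85), so its rank was nearly the same in all 3 lists. The other (3L 9460739 to 9461162), -99 bp from the start of CG44838 and within 500 bp of CG3434, was far weaker, with 71.3 pooled (rank 2380), 51.3 in replicate 3 and 33.8 in replicate 1. The peak beyond Pc was likewise near the starts of a gene pair, so all 3 peaks that came with Pc or phol were at promoters of other genes.

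The sequences under these 3 peaks are given on the forward strand of dm6, 5′ to 3′, over 75 bp either side of the summit, less any untranslated sequence of the neighbouring genes. They show what lay at the strongest sites that the windows brought in. Capitals mark TTCTTAAAT, a word noticed by eye in these sequences and in the ph-p run above, and CTCTC, the reverse complement of the GAGA factor word GAGAG. The runs are chr3L:21304488-21304608, chr3L:9457746-9457896 and chr3L:9460876-9461026.
beyond Pc: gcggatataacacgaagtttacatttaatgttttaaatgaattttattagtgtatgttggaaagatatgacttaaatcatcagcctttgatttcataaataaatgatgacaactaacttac
phol near: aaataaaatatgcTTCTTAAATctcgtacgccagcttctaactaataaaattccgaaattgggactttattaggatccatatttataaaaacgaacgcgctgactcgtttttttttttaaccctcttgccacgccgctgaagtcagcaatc
phol far: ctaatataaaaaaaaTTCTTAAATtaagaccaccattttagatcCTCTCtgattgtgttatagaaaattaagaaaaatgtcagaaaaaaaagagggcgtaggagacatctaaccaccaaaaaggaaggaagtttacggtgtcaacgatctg
The first run holds neither word, and the other two each hold TTCTTAAAT once.

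In PRC2, E(z) and esc had promoter regions of middling strength and no IDR peak. E(z) (3L 10634575 to 10638130, reverse strand) had a signal of 44.3 pooled at -32 bp, 30.3 in replicate 3 and 23.1 in replicate 1, above 59.9%, 64.2% and 67.3% of genes. Its start is within 500 bp of one of Cnep1r2. Of its 5 pooled regions, 4 lay in the first 765 bp of the gene, with pooled signals from 29.2 to 44.3. The gene esc (2L 11827204 to 11829405, reverse strand) had 38.5 pooled at -34 bp and 33.1 in replicate 3 at -26 bp. In replicate 1 its strongest promoter region was elsewhere, at 336 bp, with a signal of 10.7, so esc stood above 67.8% of genes in replicate 3 and 15.2% in replicate 1. Of the genes with no IDR peak at a promoter, esc and Pc differed most between the replicates, in opposite directions.

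**Figure D4:**
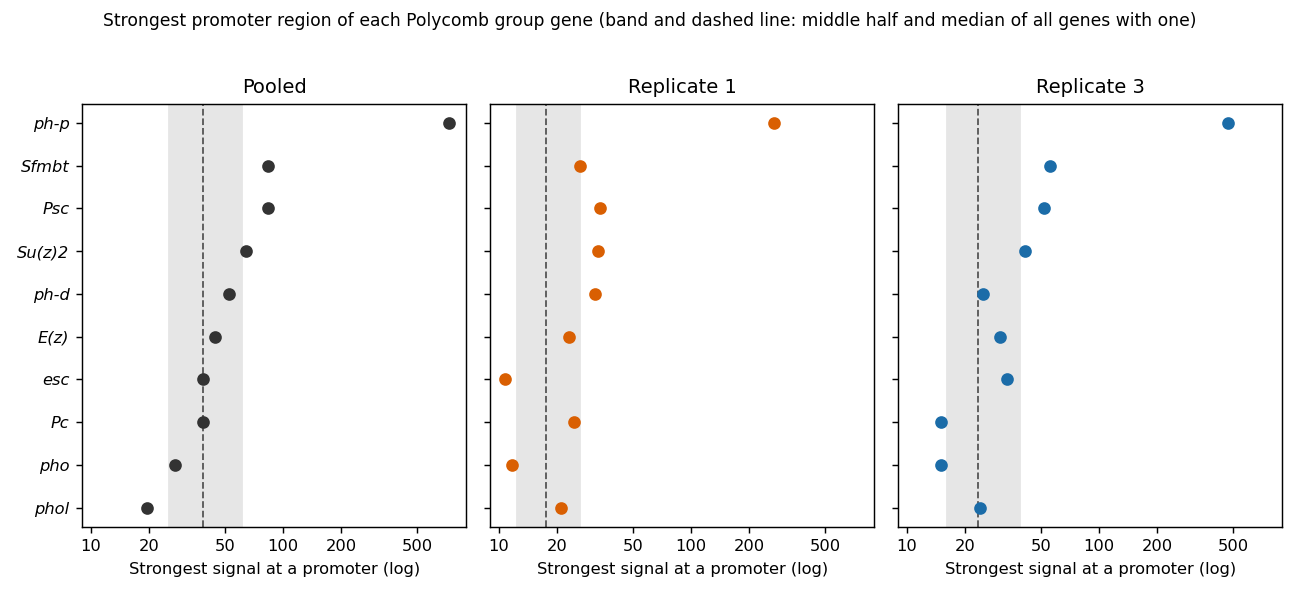
The strongest signal at a promoter of each gene (log axis) in the pooled list, replicate 1 and replicate 3, with the band and dashed line for the quartiles and median of all genes with a promoter region. In each list ph-p stands far to the right, Psc and Su(z)2 lie beyond the band, and pho lies below the lower quartile in both replicates, while Pc and esc change sides of the median between replicates.

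Across the 10 genes, the median of the strongest promoter signal was 48.2 in the pooled list, where the median over the 7229 genes with such a region was 38.1 and the quartiles were 25.4 and 60.8. Of the 75 pooled summits in the windows, 42.7% were in promoters, of these or neighbouring genes, against 28.4% of all pooled summits. A further 13 were in introns, 13 in coding exons, 12 in intergenic sequence and 5 in 3′ untranslated regions. Introns took 36.6% of all pooled summits, so the intronic share in these windows was lower. The windows were drawn around genes and their starts, whereas all pooled summits came from the whole genome, so these shares have unlike backgrounds. The share of the windows' pooled regions that were in the IDR list was 14.7%, against 8.09% in all.

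All 11 IDR summits had a summit in each replicate within 200 bp, at most 133 bp away, and 10 of them were among the 2426 strongest regions of both replicates. Over the whole IDR list, 66.0% were. Both replicates fed the pooled list that the peaks came from, so such matches are partly built in. In the sequence under them, 96.0% of 36 bp words in the strongest ph-p peak occurred once in the genome, and 100% did in the other 10.

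**Figure D5:**
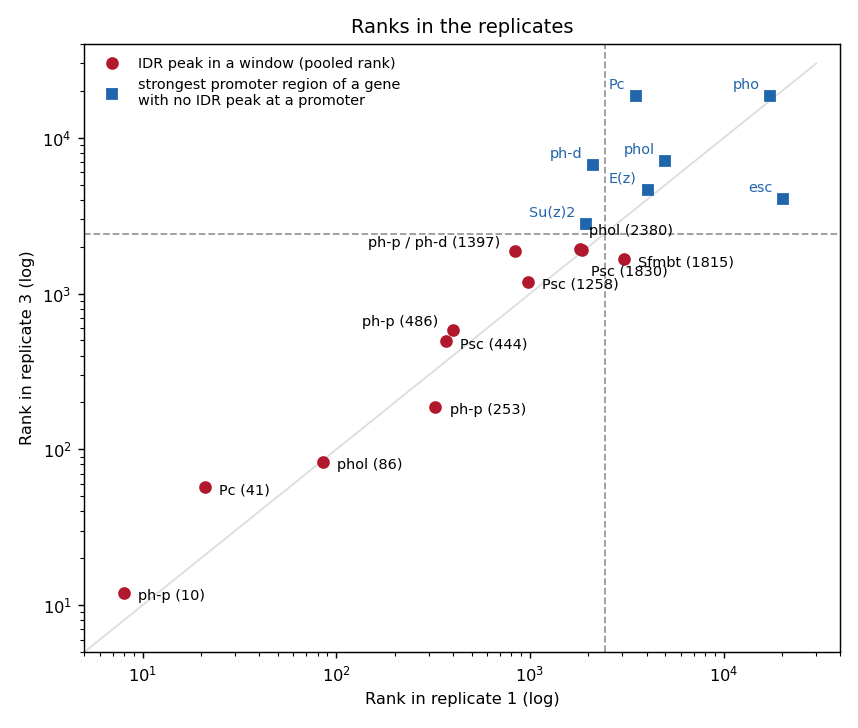
Ranks in replicate 1 against replicate 3 (log axes, low ranks are strong) for the 11 IDR peaks in the windows, labelled with the window's gene and pooled rank, and for the strongest promoter region of the 7 genes with no IDR peak at a promoter. Dashed lines mark rank 2426, and all red points lie inside them but Sfmbt, which ranks 3049 in replicate 1.

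The windows of the 11 summits, 100 bp either side, were searched on both strands for 7 words. The Pho core GCCAT lay at 2 of 11, where 27.7% of all IDR summits and 34.4% of all pooled summits had it, and GAGAG at 3 of 11, where 25.0% and 24.1% did. The E-box CAGCTG lay at 3 of 11, where 9.81% and 10.7% did. It began 75 to 77 bp after the summit in the near phol peak, the Psc intron and the ph-p intron. Its distances at other summits were not counted, so this likeness has no background. Within 50 bp it lay at 0 of 11, and within 150 bp at 4 of 11, where 15.5% of all IDR summits had it. The DNA replication-related element TATCGATA, the site of Dref, lay at 1, the Sfmbt peak, from 39 bp after the summit, where 3.30% and 1.75% did. The word CACTGTGC, taken from an earlier analysis of the same peaks, lay at 1, the exon peak of ph-p, where 4.82% and 1.86% did. GTGTGT lay at 2, where 14.8% and 14.9% did, overlapping itself in a run at the intergenic Psc peak, and GGTCACAC at 0, where 1.98% and 1.44% did. A match describes letters only.

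Other genes listed with the Polycomb group, including a class of DNA-binding proteins, were counted in the same way, and 23 were found in the annotation. Of these, 5 (21.7%) had an IDR summit at a promoter, where 10.2% of all genes did. In the gene body or within 5 kb, 14 had one, where 30.6% of all genes did, and 19 had a pooled summit at a promoter, where 51.8% did. Some of their windows are long, and that of jing alone held 65 pooled summits. The 5 were psq (signal 124 pooled) and Trl (122), which encode DNA-binding proteins of GA-rich sequence, Kdm2 (86.5), a histone demethylase gene, Su(z)12 (79.5), a PRC2 subunit gene whose peak was shared with Pfdn6, and lolal (72.3), which encodes a BTB protein that partners the GAGA factor. In the list used, psq, Trl and lolal were classed as DNA-binding, so the share of 21.7% is not one of Polycomb complex genes alone. All 5 were below ph-p (730), and psq, Trl and Kdm2 were above Sfmbt (83.6) and Psc (83.4) at promoters. The other core PRC1 gene, Sce, had 51.2 pooled, 23.9 in replicate 3 and 19.7 in replicate 1.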

How the data were processed

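Peak lists in narrowPeak format on dm6 were used: the optimal IDR list, the pooled list and a list for each of the 2 replicates, which are labelled biological replicates 3 and 1. No p-values were computed, since there was 1 group. The deposited column 7 is the authors' signal value, a score per region, used only to rank and describe regions within a list. The deposited column 9 is a −log10 q value of the authors, which reached 1 maximum of 3.82 in the whole IDR list and so ranked nothing there. The deposited summit offset placed each region. Chromatin was sonicated to 200 to 800 bp, per the labels. The sources used here name no aligner, caller, IDR threshold or depth. The dm3 lists were not used.

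Genes came from Ensembl BDGP6, and the genome sequence and synonyms from RefSeq Release 6 plus ISO1 MT. Regions were assigned by summit. A summit was classed as promoter first, then untranslated, coding exon, intron and intergenic. Word uniqueness was counted over the genome on both strands, and ph-p was aligned to ph-d with BLAST+ 2.17.0 (expect value 1e-10). Assignment and word counts were tested on simulated data. The members and lists were chosen with earlier results of these data known. The text names the 10 members, genes that share their peaks, and those genes of the other Polycomb list with an IDR peak at a promoter. Sce and the word TTCTTAAAT were chosen after their values were seen. Alternatives were other flanks, promoter sizes, list cuts and each replicate alone. Python 3.11.15, numpy 2.4.6, pandas 2.3.3 and matplotlib 3.10.9 were used.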

Additional observations from a re-analysis of the deposited data

How the results depend on the processing

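The shares over all genes (30.6%, 10.2% and 51.8%) were counted at the main settings only. The counts at other settings below therefore have no such share beside them and cannot be set against the genome. The 6 genes with an IDR summit in their windows stayed at 6 with flanks of 2000 and 10000 bp. They became 4 with IDR peaks above the median signal (ph-p, Psc, Pc and phol) and 2 with no flank, ph-p and Psc. The strongest 2426 regions of 1 replicate alone also gave 6 to 6, with Su(z)2 in place of Sfmbt in replicate 1. The 3 genes with an IDR summit at a promoter became 1 with IDR peaks above the median signal (ph-p) and 3 to 4 with 1 replicate alone, replicate 1 adding ph-d and Su(z)2 and losing Sfmbt. With 200 bp promoters ph-p dropped out, and with 1000 bp ph-d was added. The count of 10 with any pooled summit at a promoter was 5 to rank 5000, and 10 to 10 with 1 replicate alone. The 5 genes of the other Polycomb list became 2 with the outermost start only, 2 with IDR peaks above the median signal, and 3 to 5 with 1 replicate alone. The log2 ratio of ph-p over ph-d was 2.93 with 1000 bp promoters and 3.10 to 4.24 with 1 replicate alone, and that of Psc over Su(z)2 was 1.11 to 1.35. Unique words made up 89.9% of the windows, or 90.6% for words of 50 bp. The 12 motif matches became 5 within 50 bp. Alignment by dc-megablast was added after the data were seen and is given with the ph genes. Unless the setting itself removes regions, the cause was not tested. Unknown depth, a signal of unknown scale and 2 replicates with no control list limit every count here.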

Other observations

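The word TTCTTAAAT was noticed in the sequences printed above, after several spellings of it had been looked at, so its presence there is no evidence for it. It lay on the forward strand from 5 bp after the strongest ph-p summit, from -62 bp at the near phol peak and from -60 bp at the far phol peak, that is within 100 bp of 3 of the 11 summits. Among IDR summits outside these windows, 28 of 2415 (1.16%) had it. Among all pooled summits other than the 11, 159 of 29989 (0.530%) did. By pooled rank, the 11 IDR summits were left out, but weaker pooled summits of these windows were kept. The share was then 2.06% in ranks 1 to 100 (2 of 97 summits) and 2.02% in ranks 101 to 500. It was 1.00% in ranks 501 to 1000 and 0.915% in ranks 1001 to 2426. Further down it was 0.427% in ranks 2427 to 5000, 0.520% in ranks 5001 to 10000 and 0.470% below.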
